A study of Mus musculus with 8 samples.

Results

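The genes described here are 49 components of signalling by interleukin-1 (IL-1), tumour necrosis factor (TNF), the Toll-like receptors (TLRs) and nuclear factor kappa B (NF-κB), out of 21368 genes that could be named on the arrays. They were chosen as a list of known receptors, adaptors, kinases, transcription factors and feedback inhibitors. The choice applied no cutoff on expression, but earlier results of these data were known when the list was drawn up. All 49 had a probe on the array, and 42 were bright enough to be tested among 11072 tested genes.

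Hepatocytes isolated from 8 mice, 4 hCNR1+/+ and 4 hCNR1-/-, were profiled on 1-colour Agilent mRNA arrays, with 1 array for each mouse, to compare hepatocytes with and without the cannabinoid 1 receptor (CB1R), the product of *Cnr1*. The hCNR1-/- mice came from crossing Alb-Cre mice, in which the albumin promoter drives Cre recombinase in hepatocytes, with mice homozygous for a floxed *Cnr1* allele. Their strain is given as CNRO Alb-Cre, and that of the hCNR1+/+ littermates as CNRO. All mice were male, 12 to 14 weeks old and fed a standard diet, and no toxin or other treatment is given for them. The single *Cnr1* probe was well above background on 0 of 4 arrays of either genotype, so the genotype was taken from the labels.

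Members of the IL-1 receptor and TLR family signal through the adaptor MyD88 and the IRAK kinases to TRAF6 and the kinase TAK1, and TNF receptors reach TAK1 through TRAF2 and RIPK1. TAK1 activates the IκB kinase complex, which marks IκB proteins for destruction and so frees NF-κB dimers to enter the nucleus. NF-κB then switches on inflammatory and survival genes together with its own inhibitors, and in hepatocytes these signals, with IL-6 and STAT3, drive the acute-phase response and decide between survival and death after TNF.

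Levels are given as log2 of the spot intensity over the 75th percentile of the same array, so that a difference of 1 between genotypes is a 2-fold change. The 8 arrays shared 1 slide, hCNR1+/+ filling row 1 and hCNR1-/- row 2, and an effect of the row cannot be told apart from one of genotype. The 75th percentile of the intensity ran from 29.3 to 139 over the arrays, and the share of spots well above background from 28.6% to 42.3%, both lowest on hCNR1-/- replicate 4. Among the hCNR1+/+ arrays both were also lowest on replicate 4, at 62.0 and 35.0%. The hCNR1-/- replicate 4 array had a mean correlation of 0.942 with the others of its genotype, against 0.964 to 0.980 for the other 7 arrays. All 18 hepatocyte markers were well above background on all 8 arrays. Their mean level was 7.85 ± 0.26 over the hCNR1+/+ arrays and 7.76 ± 0.23 over the hCNR1-/- arrays (SD, n = 4 each). At a fold change above 2 with unadjusted p below 0.05 in limma, 2 of the 18 were lower in hCNR1-/- and 0 higher. The shares of all tested genes were 3.75% and 4.78%. The 2 were *Pck1* (log2 fold change -1.81, adjusted p = 0.0515 in limma) and *Tdo2* (-1.03, adjusted p = 0.205 in limma).

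None of the 42 tested members passed an adjusted p below 0.05 in limma in either direction, against 1.3% of all tested genes that were lower and 2.94% that were higher in hCNR1-/-. Before adjustment, 5 members were lower at p below 0.05 (11.9%, against 6.92% of all tested genes) and 5 were higher (11.9%, against 14.7%). At a fold change above 2 with unadjusted p below 0.05, 4 members were lower in hCNR1-/- (9.52%, against 3.75% of all tested genes) and 0 were higher (against 4.78%). The 4 were *Il1r1*, *Il18*, *Tnfrsf1b* and *Socs3*. The shares over all genes depend on the scaling. Of 11072 genes, 415 were lower and 529 higher at fold and p, where without scaling between arrays 630 were lower and 87 higher. An adjusted p below 0.05 was reached by 144 lower and 325 higher genes, and by 25 and 25 with scaling to the median, 29 and 1 without scaling and 51 and 30 with the deposited scores; 0 members passed it under each of these. Every hCNR1-/- array lay below every hCNR1+/+ array for 4 members (9.52%, against 5.04%) and above for 4 (9.52%, against 12.7%). The fitted log2 fold change was below 0 for 22 members and above 0 for 20, counting *Traf3*, which was 0.00 to 2 decimals, with a median of -0.03 where the median of all tested genes was 0.08. The members ran from -1.98 (*Il1r1*) to 0.87 (*Stat3*), as the plot of all tested members by role shows.

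**Figure D1:**
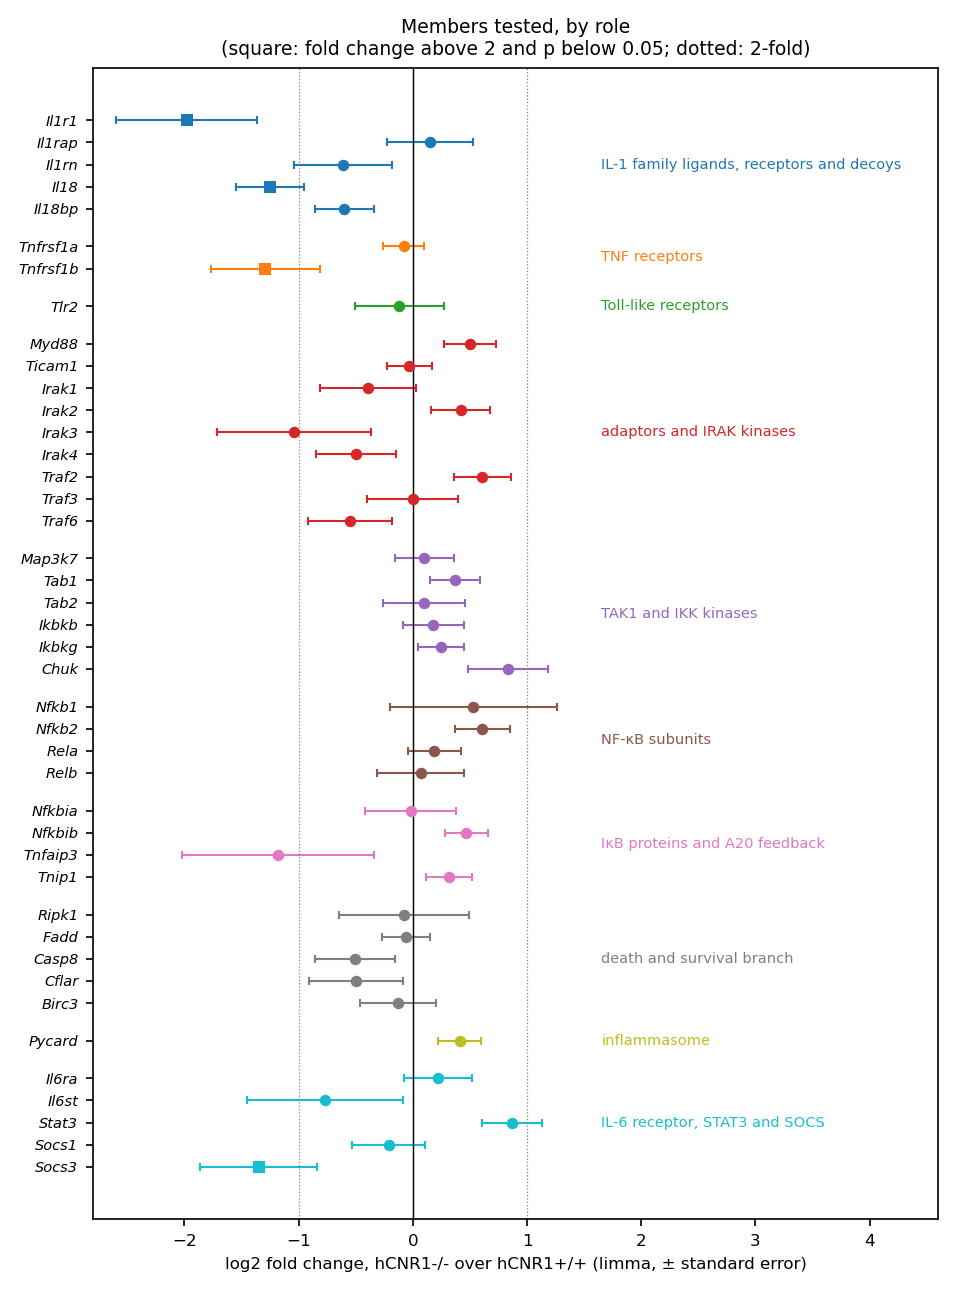
Log2 fold change of each of the 42 tested members, hCNR1-/- over hCNR1+/+, with its limma standard error, grouped and coloured by role (n = 4 arrays per genotype). Squares mark the 4 members lower at a fold change above 2 with p below 0.05. The 6 TAK1 and IKK genes and the 4 NF-κB subunits all lie above 0 at this scaling, though only *Chuk* and *Nfkb2* of them do without scaling between arrays. The 5 death and survival genes all lie below 0, though not *Ripk1* and *Birc3* with normexp background correction, nor *Cflar* (0.41) on another of its probes.

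The IL-1 family held the lowest fold change. *Il1r1*, the receptor chain that binds IL-1, measured 1.42, 1.11, 2.01 and 3.52 on the hCNR1+/+ arrays, in the order of replicates 1 to 4 used throughout, and -0.15, 0.07, 1.42 and -1.17 on the hCNR1-/- arrays. The genotypes overlapped, since hCNR1-/- replicate 3 reached the level of hCNR1+/+ replicate 1, and the highest and the lowest values both came from replicate 4. The difference was -1.98 ± 0.62 (SE), a fold change of 3.93, with a 95% interval from -3.37 to -0.58 (limma, p = 0.0105, adjusted p = 0.106; two-sided exact permutation test, p = 0.0571). The *Il1r1* probe was well above background on all 4 hCNR1+/+ arrays and 3 of 4 hCNR1-/- arrays. With normexp background correction the difference was -1.21. In these bulk samples, fewer cells of a type and less RNA per cell cannot be told apart.

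*Il18*, the cytokine of the family that drives interferon-γ production, measured -0.57, -0.40, -0.16 and 0.52 in hCNR1+/+ and -1.12, -1.04, -1.48 and -1.97 in hCNR1-/-. All 4 hCNR1-/- arrays lay below all 4 hCNR1+/+ arrays. The difference was -1.25 ± 0.30 (SE), a fold change of 2.38. It had the lowest adjusted p among the members (limma, p = 0.00233, adjusted p = 0.0516) and the smallest p that the exact permutation test can give here (0.0286). The *Il18* probe was well above background on all 4 hCNR1+/+ arrays and 3 of 4 hCNR1-/- arrays. With normexp background correction its difference was -0.38 (adjusted p = 0.537 in limma). *Il18bp*, the secreted protein that neutralises IL-18, measured 1.41, 1.76, 1.63 and 2.48 in hCNR1+/+ and 1.21, 1.41, 1.32 and 0.95 in hCNR1-/-. It too was lower on all hCNR1-/- arrays, but hCNR1-/- replicate 2 and hCNR1+/+ replicate 1 differed only beyond the second decimal, and the difference was -0.60 ± 0.26 (SE, adjusted p = 0.223 in limma).

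The other members of the IL-1 group gave no such separation. *Il1rap*, the shared accessory chain of the IL-1 receptors, differed by 0.15 ± 0.38 (SE) and *Il1rn*, the receptor antagonist, by -0.61 ± 0.43 (SE). *Il1r2*, the decoy receptor, was well above background on 0 of 8 arrays. Of the 5 tested genes of the group, 4 had a fold change below 0, and their median was -0.61.

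**Figure D2:**
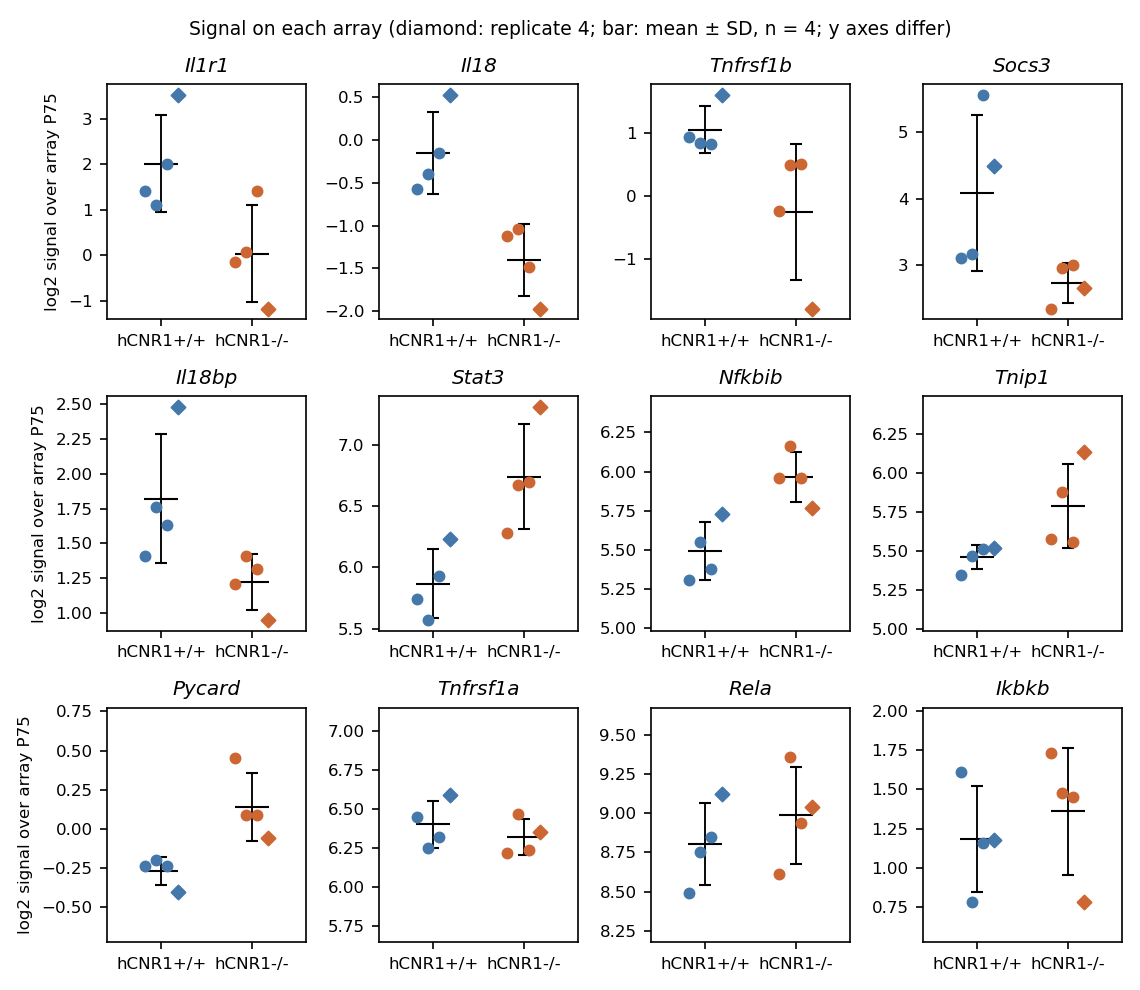
Level of 12 members on each array, as log2 of the intensity over the array's 75th percentile, with the mean ± SD of 4 arrays per genotype and replicate 4 drawn as a diamond; the y axes differ between panels. For *Il18*, *Tnfrsf1b*, *Socs3* and *Il18bp* all hCNR1-/- points lie below all hCNR1+/+ points, for *Stat3*, *Nfkbib*, *Tnip1* and *Pycard* above, and for *Il1r1*, *Tnfrsf1a*, *Rela* and *Ikbkb* the genotypes overlap.

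Both genes of the TNF receptors could be tested. *Tnfrsf1a*, which encodes TNFR1, the receptor that carries a death domain, measured 6.45, 6.25, 6.32 and 6.59 in hCNR1+/+ and 6.22, 6.47, 6.24 and 6.35 in hCNR1-/-. The genotypes overlapped and the difference was -0.08 ± 0.18 (SE), with a 95% interval from -0.49 to 0.33 (adjusted p = 0.831 in limma).

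*Tnfrsf1b*, which encodes TNFR2, the receptor that responds chiefly to membrane-bound TNF, measured 0.93, 0.84, 0.82 and 1.59 in hCNR1+/+ and -0.24, 0.49, 0.51 and -1.78 in hCNR1-/-. All hCNR1-/- arrays were lower, replicate 4 of each genotype being the extreme of its group. The difference was -1.29 ± 0.48 (SE), a fold change of 2.45, with a 95% interval from -2.37 to -0.21 (limma, p = 0.0237, adjusted p = 0.159; exact permutation test, p = 0.0286). The *Tnfrsf1b* probe was well above background on all 4 hCNR1+/+ arrays and 3 of 4 hCNR1-/- arrays. With normexp background correction its difference was -0.61. The difference between the fold changes of the 2 receptors was not tested.

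Among the Toll-like receptors only *Tlr2*, the receptor for bacterial lipoproteins, could be tested, with a difference of -0.12 ± 0.39 (SE). *Tlr3*, which senses double-stranded RNA, and *Tlr4*, which senses lipopolysaccharide, were well above background on 0 of 8 arrays. *Tlr5*, the flagellin receptor, was so on 1 array of each genotype.

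The adaptors and receptor-proximal kinases were split, with 5 of 9 below 0, *Myd88*, *Irak2* and *Traf2* above, *Traf3* at 0.00 and a median of -0.03. *Traf2*, the adaptor of the TNF receptors, measured 5.88, 5.94, 5.82 and 6.36 in hCNR1+/+ and 6.14, 6.90, 6.41 and 6.98 in hCNR1-/-. It overlapped between genotypes through hCNR1-/- replicate 1 and differed by 0.61 ± 0.25 (SE; limma, p = 0.0372, adjusted p = 0.200; exact permutation test, p = 0.0571). *Myd88*, the common adaptor of IL-1 receptors and most TLRs, differed by 0.50 ± 0.23 (SE, adjusted p = 0.244 in limma).

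*Irak3*, which encodes the pseudokinase IRAK-M that restrains this pathway, measured 2.0, 1.94, 2.55 and 4.62 in hCNR1+/+ and 1.53, 2.44, 2.66 and 0.34 in hCNR1-/-. Replicate 4 held the highest and the lowest value, and the other 6 arrays were mixed. Its difference was -1.04 ± 0.67 (SE, adjusted p = 0.407 in limma). The active kinases *Irak1* and *Irak4* differed by -0.39 ± 0.42 and -0.50 ± 0.35 (SE), and *Irak2*, which prolongs the signal, by 0.42 ± 0.26 (SE). *Ticam1*, which encodes TRIF, the adaptor of TLR3 and TLR4, differed by -0.03 ± 0.20 (SE). *Traf3*, a ligase that leads to interferon and holds back the non-canonical pathway, differed by 0.00 ± 0.40 (SE), and by 0.45 when hCNR1-/- replicate 4 was left out. *Traf6*, the ligase downstream of the IRAK kinases, differed by -0.55 ± 0.37 (SE).

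The kinase step had all 6 tested genes above 0, with a median of 0.21, at this scaling, but only *Chuk* (0.27) without scaling between arrays, and *Map3k7* and *Tab2* were at -0.02 and -0.06 with the deposited scores. None passed the adjusted threshold. *Ikbkb*, the kinase subunit IKKβ of canonical signalling, measured 1.61, 0.78, 1.16 and 1.18 in hCNR1+/+ and 1.73, 1.48, 1.45 and 0.78 in hCNR1-/-. The groups covered nearly the same range, and the difference was 0.18 ± 0.27 (SE), with a 95% interval from -0.43 to 0.78 (adjusted p = 0.735 in limma). *Chuk*, the kinase subunit IKKα, measured 4.28, 3.72, 3.72 and 2.55 in hCNR1+/+ and 4.30, 4.21, 4.75 and 4.31 in hCNR1-/-. The low value of hCNR1+/+ replicate 4 set it apart from the other hCNR1+/+ arrays, and the difference was 0.83 ± 0.35 (SE; limma, p = 0.0401, adjusted p = 0.207; exact permutation test, p = 0.0571). It was 0.49 when that array was left out. *Ikbkg*, the regulatory subunit NEMO, differed by 0.25 ± 0.20 (SE), *Map3k7*, which encodes TAK1 itself, by 0.10 ± 0.26 (SE), and the TAK1-binding partners *Tab1* and *Tab2* by 0.37 ± 0.22 and 0.10 ± 0.36 (SE).

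All 4 tested NF-κB subunits also lay above 0, with a median of 0.36, at this scaling, but *Rela* (-0.15) and *Relb* (-0.02) did not with quantile normalization, and without scaling only *Nfkb2* (0.06) did. No adjusted p was below the threshold. *Rela*, the p65 subunit that activates transcription in the canonical dimer, measured 8.49, 8.75, 8.85 and 9.12 in hCNR1+/+ and 8.61, 9.36, 8.94 and 9.04 in hCNR1-/-. The genotypes overlapped and the difference was 0.19 ± 0.23 (SE), with a 95% interval from -0.33 to 0.71 (adjusted p = 0.675 in limma).

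*Nfkb2*, the precursor of p52 in the non-canonical dimer, measured 3.0, 2.89, 3.08 and 3.03 in hCNR1+/+ and 3.73, 3.84, 3.01 and 3.87 in hCNR1-/-. On 3 of 4 hCNR1-/- arrays it was above every hCNR1+/+ array, and on replicate 3 it was within their range. The difference was 0.61 ± 0.24 (SE; limma, p = 0.0270, adjusted p = 0.169; exact permutation test, p = 0.0857). *Relb*, the partner of p52, differed by 0.07 ± 0.38 (SE), and *Nfkb1*, the precursor of p50, by 0.53 ± 0.73 (SE), its hCNR1+/+ values being -0.79, 2.33, -1.19 and -0.73.

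The inhibitors and feedback genes of NF-κB lay on both sides of 0. *Nfkbib*, which encodes IκBβ, measured 5.31, 5.55, 5.38 and 5.73 in hCNR1+/+ and 5.96, 6.16, 5.96 and 5.77 in hCNR1-/-. All hCNR1-/- arrays were higher, by 0.47 ± 0.19 (SE; limma, p = 0.0366, adjusted p = 0.198; exact permutation test, p = 0.0286). *Tnip1*, which encodes the A20-binding protein ABIN1, was also higher on all hCNR1-/- arrays, by 0.32 ± 0.20 (SE, adjusted p = 0.389 in limma). Without scaling the differences were -0.08 for *Nfkbib* and -0.23 for *Tnip1*. *Nfkbia*, the IκBα gene, differed by -0.02 ± 0.40 (SE).

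*Tnfaip3*, which encodes the deubiquitinase A20, measured 0.54, 0.64, 1.22 and 2.32 in hCNR1+/+ and 0.64, 1.90, 0.09 and -2.63 in hCNR1-/-. Replicate 4 again held both extremes, and the difference of -1.18 ± 0.84 (SE, adjusted p = 0.450 in limma) became 0.07 without replicate 4 of both genotypes. *Nfkbiz*, a nuclear IκB protein that is itself induced by IL-1 and TLR ligands, stood well above background on 3 hCNR1+/+ arrays and on 0 of the 4 from hCNR1-/-, which is too few for a test.

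*Nfkbia*, *Tnfaip3* and *Tnip1* are textbook targets of NF-κB, and their promoters are shown because the levels of these feedback genes are often read as the output of the pathway. The windows run from 250 bases before to 50 after the RefSeq start site on GRCm38.p6, 5′ to 3′ on the gene's strand, and capitals mark matches to the NF-κB consensus, searched on both strands.
Nfkbia (chr12:55492598-55492897, minus strand): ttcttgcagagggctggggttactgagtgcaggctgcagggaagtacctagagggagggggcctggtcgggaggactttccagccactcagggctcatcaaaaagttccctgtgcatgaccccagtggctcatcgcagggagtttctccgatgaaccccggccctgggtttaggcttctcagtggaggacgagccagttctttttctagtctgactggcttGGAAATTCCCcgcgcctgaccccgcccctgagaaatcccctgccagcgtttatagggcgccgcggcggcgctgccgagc
Tnfaip3 (chr10:19015361-19015660, minus strand): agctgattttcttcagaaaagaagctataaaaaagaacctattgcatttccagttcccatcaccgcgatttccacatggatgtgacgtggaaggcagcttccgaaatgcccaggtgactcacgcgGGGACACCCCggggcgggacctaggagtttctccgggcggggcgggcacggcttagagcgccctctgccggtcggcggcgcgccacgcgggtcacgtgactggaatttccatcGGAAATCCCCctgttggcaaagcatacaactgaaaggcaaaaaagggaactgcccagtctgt
Tnip1 (chr11:54962891-54963190, minus strand): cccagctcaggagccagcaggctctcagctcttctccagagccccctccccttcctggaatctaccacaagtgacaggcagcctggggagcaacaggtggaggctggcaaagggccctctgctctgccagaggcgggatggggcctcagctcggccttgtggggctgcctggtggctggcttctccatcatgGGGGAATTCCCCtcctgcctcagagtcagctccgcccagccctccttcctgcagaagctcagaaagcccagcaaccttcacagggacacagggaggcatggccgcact
*Nfkbia* held 1 match, starting 29 bases before the start site, and *Tnfaip3* held 2, starting 125 and 12 bases before it. In *Tnip1* 3 overlapping matches formed 1 run that started 58 bases before the start site. A match describes the letters of the window and is no evidence of binding in these hepatocytes.

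Promoter windows were found for 43 of the 49 members, and 11 of these members held a match in at least 1 window. They were *Il1r1*, *Tlr2*, *Tlr3*, *Irak1*, *Traf3*, *Map3k7*, *Nfkb2*, *Nfkbia*, *Tnfaip3*, *Tnip1* and *Nlrp3*. By window the share was 14 of 57, where 8.46% of all 32851 promoter windows held a match. The 9 tested members with a match had a median log2 fold change of -0.02, and the 29 tested members whose windows held none had a median of -0.08. *Ikbkb*, *Nfkb1*, *Nfkbiz*, *Relb*, *Tab1* and *Tlr4* were not matched.

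All 5 genes of the death and survival branch lay below 0, with a median of -0.13, but *Ripk1* and *Birc3* were at 0.19 and 0.02 with normexp background correction. Another *Cflar* probe, well above background on all 4 arrays of each genotype, gave 0.41. None of the 5 genes had an unadjusted p below 0.05. *Ripk1*, the kinase that joins TNFR1 to both NF-κB and cell death, differed by -0.08 ± 0.57 (SE) and *Fadd*, the adaptor that recruits caspase-8, by -0.06 ± 0.21 (SE). *Casp8* itself, the initiator caspase, differed by -0.51 ± 0.35 (SE). The survival genes *Cflar*, which encodes the caspase-8 inhibitor cFLIP, and *Birc3*, which encodes the ubiquitin ligase cIAP2, differed by -0.50 ± 0.41 and -0.13 ± 0.33 (SE). The single lowest hCNR1-/- value of *Ripk1*, *Casp8* and *Cflar* was on replicate 4 in each case. Without that array the differences were 0.57 for *Ripk1*, -0.17 for *Casp8* and -0.06 for *Cflar*. Without hCNR1-/- replicate 2 that of *Birc3* was 0.17.

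Of the inflammasome, only the adaptor gene *Pycard* (ASC) could be tested. It measured -0.24, -0.20, -0.24 and -0.40 in hCNR1+/+ and 0.45, 0.09, 0.09 and -0.06 in hCNR1-/-. All hCNR1-/- arrays were higher, by 0.41 ± 0.19 (SE; limma, p = 0.0596, adjusted p = 0.251; exact permutation test, p = 0.0286), and the difference was -0.14 without scaling. The caspase gene *Casp1* was well above background on 0 of 8 arrays and the sensor gene *Nlrp3* on at most 1 of 8 with either of its 2 probes.

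In the IL-6 branch, *Stat3* and its feedback inhibitor *Socs3* lay on opposite sides. *Stat3*, the transcription factor of IL-6 signalling, measured 5.74, 5.57, 5.93 and 6.23 in hCNR1+/+ and 6.28, 6.67, 6.70 and 7.31 in hCNR1-/-. All hCNR1-/- arrays were higher, although hCNR1-/- replicate 1 exceeded hCNR1+/+ replicate 4 only narrowly. The difference was 0.87 ± 0.26 (SE), a fold change of 1.83, with a 95% interval from 0.28 to 1.46 (limma, p = 0.00840, adjusted p = 0.0948; exact permutation test, p = 0.0286).

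The direction for *Stat3* belonged to 1 of its probes. A second probe that passed the filter differed by -0.93, and the mean of both probes by -0.03. *Irak1*, *Cflar* and *Nfkb1* likewise had probes on both sides of 0. The probe used for *Irak1* gave -0.39 where the others gave 0.36 and 0.22, that for *Cflar* -0.50 where another gave 0.41, and that for *Nfkb1* 0.53 where another gave -0.30. For *Nfkbib* the probe used gave 0.47, another 0.37 and the last -0.30. The fold changes of the probes for *Tnip1*, *Ikbkg*, *Irak2*, *Relb* and *Map3k7* had 1 sign for each gene. The *Tnfrsf1a* probes gave -0.08 and 0.03.

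**Figure D3:**
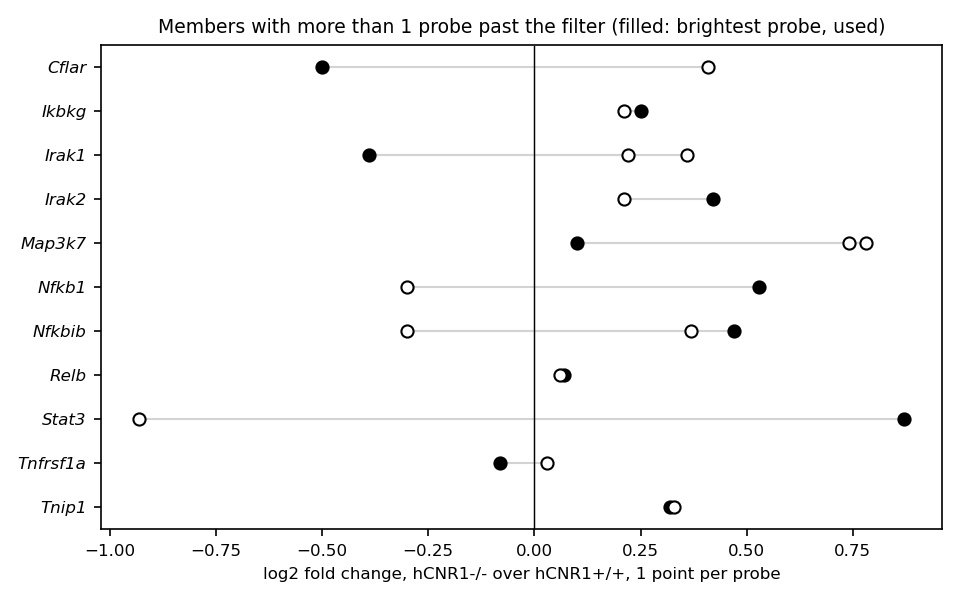
Log2 fold change, hCNR1-/- over hCNR1+/+, of each probe past the filter for the 11 members with more than 1 such probe; the filled point is the brightest probe, whose values are reported. The points of *Stat3* lie furthest apart, at 0.87 and -0.93.

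*Socs3*, which is induced by STAT3 and blocks the IL-6 receptor, measured 3.11, 3.17, 5.56 and 4.5 in hCNR1+/+ and 2.35, 2.96, 3.0 and 2.66 in hCNR1-/-. All hCNR1-/- arrays were lower, narrowly so against hCNR1+/+ replicates 1 and 2 and widely against replicates 3 and 4. The difference was -1.35 ± 0.51 (SE), a fold change of 2.54, with a 95% interval from -2.49 to -0.20 (limma, p = 0.0256, adjusted p = 0.165; exact permutation test, p = 0.0286). *Socs1*, which restrains interferon and IL-6 signalling, differed by -0.21 ± 0.32 (SE). The receptor chains *Il6ra* and *Il6st* (gp130) differed by 0.22 ± 0.30 and -0.77 ± 0.68 (SE), and by 0.48 and -0.02 without hCNR1-/- replicate 4.

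The promoters of *Socs3* and of *Tnfrsf1b* are shown because both genes were lower on every hCNR1-/- array and both windows hold the STAT motif TTCNNNGAA, which reads the same on both strands and is marked in capitals.
Socs3 (chr11:117969317-117969616, minus strand): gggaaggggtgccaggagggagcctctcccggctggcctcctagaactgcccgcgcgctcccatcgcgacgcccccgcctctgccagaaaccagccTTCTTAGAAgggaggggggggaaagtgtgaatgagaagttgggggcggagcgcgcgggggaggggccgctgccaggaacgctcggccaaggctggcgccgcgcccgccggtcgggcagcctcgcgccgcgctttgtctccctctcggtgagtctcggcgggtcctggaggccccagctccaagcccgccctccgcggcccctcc
Tnfrsf1b (chr4:145246821-145247120, minus strand): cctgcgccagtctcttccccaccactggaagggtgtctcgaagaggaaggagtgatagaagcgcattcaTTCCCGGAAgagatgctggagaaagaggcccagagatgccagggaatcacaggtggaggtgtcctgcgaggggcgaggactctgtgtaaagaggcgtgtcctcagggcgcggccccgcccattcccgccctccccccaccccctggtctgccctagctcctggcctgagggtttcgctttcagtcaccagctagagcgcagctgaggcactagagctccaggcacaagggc
The motif starts 154 bases before the start site in *Socs3* and 181 before it in *Tnfrsf1b*. It was found in 9 of the 57 member windows, those of *Il1r2*, *Tnfrsf1a*, *Tnfrsf1b*, *Myd88*, *Chuk*, *Nfkb2*, *Tnip1*, *Ripk1* and *Socs3*, and in 8.3% of all windows. The 8 tested members that held it had a median log2 fold change of 0.12, and 4 of them lay below 0 and 4 above. The 30 tested members without it had a median of -0.09. *Il18* and *Il18bp*, which were also lower on every hCNR1-/- array, held no match. Here too a match describes the letters of the window and is no evidence of binding.

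Of the 4 members at the fold and p threshold, *Il1r1* and *Il18* passed it in each fit with 1 array left out, and *Tnfrsf1b* and *Socs3* did not in all. Leaving out each array in turn, the difference ran from -2.43 to -1.47 for *Il1r1*, from -1.39 to -1.03 for *Il18*, from -1.55 to -0.79 for *Tnfrsf1b* and from -1.67 to -0.85 for *Socs3*. Without hCNR1+/+ replicate 4 or without hCNR1-/- replicate 4, the count at this threshold was 2, *Il1r1* and *Il18*. Without replicate 4 of both genotypes it was 1, *Il1r1*, whose difference was then -1.07 (adjusted p = 0.108 in limma). In that fit the difference of *Il18* was -0.84, below 2-fold, with an adjusted p of 0.0219 in limma, and those of *Stat3* (0.80, adjusted p = 0.0232), *Nfkbib* (0.62, adjusted p = 0.0287), *Il6ra* (0.64, adjusted p = 0.0287) and *Ripk1* (0.75, adjusted p = 0.0351) were also past the adjusted threshold. Over all 11072 tested genes, 480 were lower and 1701 higher at the adjusted threshold in that fit. The fold change of *Socs3* was below 2-fold without hCNR1+/+ replicate 3, at -0.85.

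**Figure D4:**
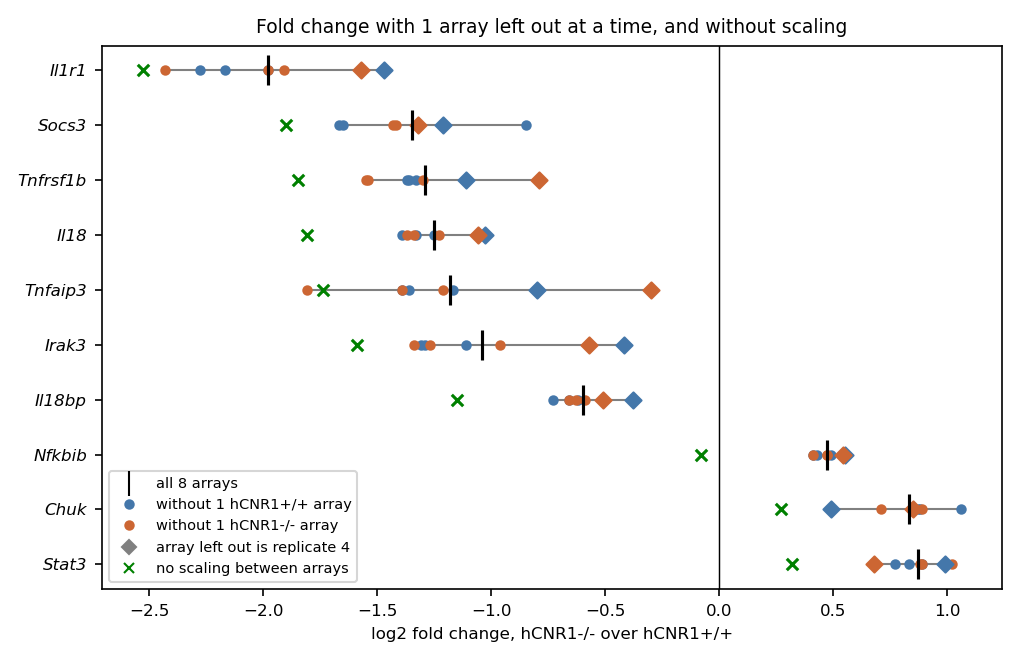
Log2 fold change of 10 members with all 8 arrays (bar), with 1 array left out at a time (points, replicate 4 as diamonds) and without scaling between arrays (crosses). Of the 10, *Tnfaip3* and *Irak3* shrink most when a replicate 4 array is left out, and the cross of *Nfkbib* lies at -0.08, on the other side of 0.

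Markers of Kupffer cells, the resident macrophages of the liver, also had lower levels in hCNR1-/-. Of 18 listed markers 12 were tested, all 12 with a log2 fold change below 0, with 2 past the adjusted threshold, *Marco* (-2.41, adjusted p = 0.0336 in limma) and *Ctss* (-1.89, adjusted p = 0.0124), against 1.3% of all tested genes, and 5 past the fold and p threshold, against 3.75%. The *Ctss* probe was well above background on all 4 hCNR1+/+ arrays but only 2 hCNR1-/- arrays, so it passed the filter through the group where it is high. Their mean level ran from 0.98 to 2.22 on the hCNR1+/+ arrays and from 0.04 to 0.82 on the hCNR1-/- arrays, and was highest on hCNR1+/+ replicate 4. The brightest, *Cd68*, averaged 6.04 ± 0.38 over the hCNR1+/+ arrays and 5.21 ± 0.09 over the hCNR1-/- arrays (SD, n = 4 each). Of the markers largely restricted to Kupffer cells, *Clec4f* differed by -1.33 ± 0.39 (SE, adjusted p = 0.0897 in limma) with overlapping genotypes, and *Vsig4* by -1.77 ± 0.43 (SE, adjusted p = 0.0519 in limma) with all hCNR1-/- arrays lower, 2 of them not well above background. Of the other macrophage markers, *Timd4*, *Cd163*, *Aif1* and *Fcgr1* were well above background on 0 of 8 arrays, *Lyz2* on 1 hCNR1+/+ array, and *Adgre1*, which encodes F4/80, on 3 arrays of hCNR1+/+ and 0 of hCNR1-/-. *Il1r1*, *Il18*, *Tnfrsf1b* and *Socs3* are also expressed by cells other than hepatocytes, and the part of Kupffer cell RNA in their differences was not tested.

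Of the other marker lists only the endothelial one was measured nearly in full. The mean of 10 endothelial markers was 0.33 ± 0.34 for hCNR1+/+ and 0.18 ± 0.09 for hCNR1-/- (SD, n = 4 each), and 0 of the 10 passed the adjusted threshold. Of the neutrophil markers 1 of 8 could be tested, *Csf3r* (-0.80, adjusted p = 0.0722 in limma), and of the lymphocyte markers 3 of 12, all with a fold change above 0. Of the stellate cell markers 2 of 10 and of the cholangiocyte markers 3 of 6 were tested, with 0 past the adjusted threshold. The 10 genes that respond to cell isolation, such as *Egr1*, averaged 3.33 ± 0.39 for hCNR1+/+ and 3.08 ± 0.51 for hCNR1-/- (SD, n = 4 each), lowest on hCNR1-/- replicate 4.

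**Figure D5:**
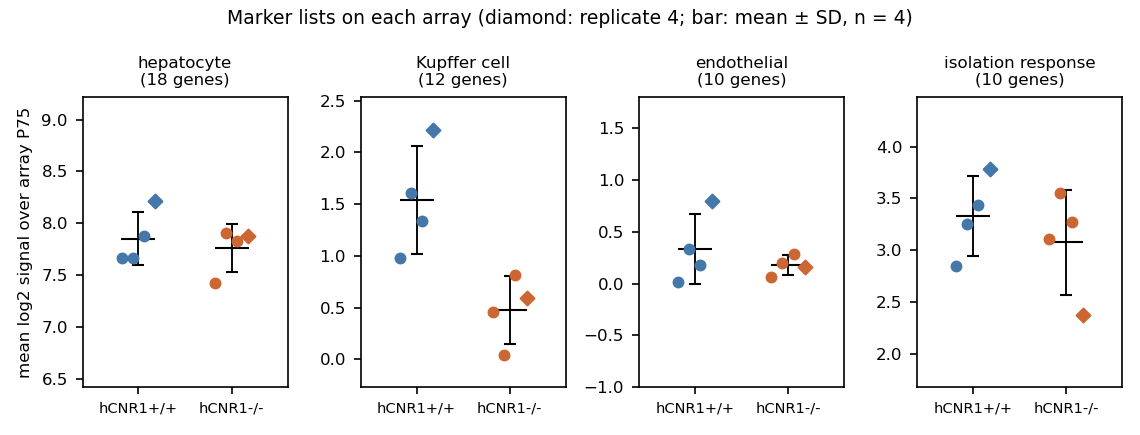
Mean log2 level of 4 lists of marker genes on each array, with the mean ± SD of 4 arrays per genotype and replicate 4 as a diamond. The hCNR1-/- arrays lie between 0.04 and 0.82 for the Kupffer cell markers, below all hCNR1+/+ arrays, and overlap with them for the other 3 lists.

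Among 104 further genes of these pathways that are not members, 76 were tested, with a median log2 fold change of 0.10. The adjusted threshold was passed by 1 lower and 2 higher, near the shares over all tested genes (1.3% and 2.94%), and these 3 are given as values of single genes. The ligands could hardly be measured, since 1 of 11 was tested, and *Tnf*, *Il1a* and *Il1b* were well above background on 0 of 8 arrays and *Il6* on 1 array of each genotype. *Ly96*, which encodes MD-2, the co-receptor of TLR4, measured 1.39, 1.5, 0.88 and 1.53 in hCNR1+/+ and 0.03, 0.05, 0.38 and -0.44 in hCNR1-/-. It was lower on all hCNR1-/- arrays, and the difference was -1.32 ± 0.25 (SE, adjusted p = 0.0263 in limma).

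The genes that rose were *Cyld* and *Tab3*. *Cyld*, which encodes a deubiquitinase that turns off NF-κB signalling, measured -1.48, -1.19, -1.27 and -1.95 in hCNR1+/+ and 0.34, -0.64, 0.26 and 1.21 in hCNR1-/-, higher on all hCNR1-/- arrays by 1.77 ± 0.37 (SE, adjusted p = 0.0353 in limma). *Tab3*, a TAK1-binding partner like TAB2, measured -1.47, -1.97, -3.31 and -3.36 in hCNR1+/+ and -0.66, -0.63, 0.23 and -0.47 in hCNR1-/-. It was higher on all hCNR1-/- arrays by 2.14 ± 0.45 (SE, adjusted p = 0.0348 in limma), though its probe was well above background on only 1 of 4 hCNR1+/+ arrays.

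Of 22 NF-κB and acute-phase target genes 19 were tested, with a median of -0.07, and 2 passed the adjusted threshold, both lower (2 of 19, against 1.3% of all tested genes), and 0 higher (against 2.94%). *Pim1*, a survival kinase gene induced by NF-κB and STAT3, measured 0.67, 0.98, 0.75 and 0.97 in hCNR1+/+ and -0.54, -0.55, -0.88 and 0.04 in hCNR1-/-. The arrays did not overlap, and the difference was -1.32 ± 0.24 (SE, adjusted p = 0.0229 in limma). *Orm1*, which encodes the acute-phase protein orosomucoid, measured 7.80, 7.63, 7.49 and 8.28 in hCNR1+/+ and 6.95, 6.78, 6.92 and 6.12 in hCNR1-/-. It was lower on all hCNR1-/- arrays with a difference of -1.11 ± 0.27 (SE, adjusted p = 0.0494 in limma). The acute-phase genes *Saa1* and *Saa2* differed by 0.05 ± 0.28 and 0.40 ± 0.31 (SE). Of the 19 tested genes, 10 had a fold change below 0 and 9 above. At the fold and p threshold 4 of the 19 were lower and 0 higher, against 3.75% and 4.78% of all tested genes.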

How the data were processed

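Hepatocyte RNA, labelled with Cy3, was measured on 1-colour Agilent arrays. For each array the authors deposited the spot intensity written by Feature Extraction 12.0.3.1 after background correction, not scaled between arrays, and a score per spot, equal within 0.005 to the log intensity's z-score on that array. Samples were grouped by their labels. From each log2 intensity the array's 75th percentile over non-control spots was subtracted, outlier spots were left out and spots of a probe averaged. The software's background flag had to be set on at least 50% of a probe's spots for it to count as well above background. Probes were named by accession through RefSeq (GRCm38.p6), 28331 of 55681 being named; the array design names an older build, so no probe coordinates are given. Genes were tested on their brightest probe among those above background on at least 4 of 8 arrays.

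The comparison used lmFit and eBayes of limma 3.58.1 in R 4.3.3, two-sided, with Benjamini-Hochberg adjustment over 11072 genes and calls at an adjusted p below 0.05, or at a fold change above 2 with p below 0.05. For single genes an exact two-sided permutation test over all 70 splits of the arrays into 4 and 4 was added, and its smallest p is 0.0286. The fit was tested on simulated data. The members, roles, pathway, target and marker lists and the tests were chosen with earlier results of these data known. Named are all members, those pathway and target genes past the adjusted threshold, and the brightest marker of a list. Other markers, the ligands, *Saa1* and *Saa2* were named after their values were seen. Members past either threshold and *Tnfrsf1a*, *Tnfrsf1b*, *Il1r1*, *Rela* and *Ikbkb* are given on every array, as are others chosen after their values were seen. The alternatives were other scalings, the deposited score, normexp correction (on the median signal, since the files hold no mean signal), other filters, probe summaries and variance models, array weights, a replicate block, and leaving out arrays. Replicate numbers equal slide columns; the correlation of the deviations of same-numbered arrays was 0.21, -0.16, -0.05 and 0.02 for numbers 1 to 4. Precision is limited by the number of arrays. The p-values measure the spread between arrays, in which mouse, cell preparation and array cannot be told apart.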

Additional observations from a re-analysis of the deposited data

Results flagged for a closer look

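Within each genotype, an array standing apart from the other 3 was looked for in 84 groups, 42 members in each of 2 genotypes, by the gap to its nearest neighbour over the range of the group. It was found in 7, where chance alone flags about 1 in 20 groups, and 4 of the 7 were hCNR1-/- replicate 4, the dimmest array. On that array *Irak1* was 1.05 (the other hCNR1-/- arrays 2.94 to 3.03), *Traf3* 2.14 (3.87 to 4.0), *Tab2* 0.25 (1.4 to 1.57) and *Cflar* -0.79 (0.87 to 1.08). In hCNR1+/+, *Tnfrsf1b* was 1.59 on replicate 4 (0.82 to 0.93 on the others), and on replicate 2 *Traf3* was 3.20 (3.57 to 3.59) and *Nfkb1* 2.33 (-1.19 to -0.73). All are log2 levels over the array's 75th percentile. The part of array brightness in these values was not tested.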

How the results depend on the processing

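Under every alternative that could fit them, *Il1r1*, *Il18*, *Il18bp*, *Tnfrsf1b* and *Socs3* stayed lower in hCNR1-/-. The cause of the changes below was not tested, beyond fewer genes or arrays entering. The number of members lower at fold change above 2 and p below 0.05 was 4 with all arrays and 3 with median scaling. It was 2 with normexp, the ordinary linear model or array weights, and 2 to 5 with 1 array left out. It was 1 (*Socs3*) with the filter on all 8 arrays, under which *Il1r1*, *Il18* and *Tnfrsf1b* were not tested. Without the filter on dim probes it was 5, the same 4 and a member outside the 42 tested. The number higher at this threshold was 0 to 1 with 1 array left out (*Chuk*, *Nfkb1* or *Stat3*). Members lower at an adjusted p below 0.05 numbered 0 with all arrays and 0 to 1 with 1 array left out. They numbered 1 (*Il18*) with the filter within 1 genotype and 2 (*Il1r1*, *Il18*) with array weights, and 5 members were higher with array weights. Over all genes, array weights gave 646 lower and 2176 higher of 11072, and the filter within 1 genotype 170 and 386 of 10061. Leaving out hCNR1-/- replicate 4, which gave the 1 lower member (*Il18*), gave 323 and 1121 of 11072. Without replicate 4 of both genotypes, chosen after seeing the data, 1 member was lower and 4 higher at the adjusted threshold, and 1 lower at fold and p. Over all 11072 genes that fit gave 480 lower and 1701 higher at the adjusted threshold, and 311 and 539 at fold and p. The adjusted p of *Il18* ranged from 0.0073 to 0.537 over the alternatives. Without scaling the members' median was -0.58 and that of all genes -0.47; with 1 array left out the members' median ran from -0.11 to 0.05. With the replicate number as a block, 0 members passed the adjusted threshold, 4 were lower at fold and p and the median was -0.03. In that fit the adjusted calls over all genes went from 144 lower and 325 higher to 0. The labels do not say whether same-numbered mice are paired, and equal numbers are also equal slide columns.

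Members whose difference changed sign were, without scaling, *Il1rap* -0.40, *Myd88* -0.06, *Irak2* -0.13, *Map3k7* -0.46, *Tab1* -0.18, *Tab2* -0.46, *Ikbkb* -0.38, *Ikbkg* -0.31, *Nfkb1* -0.02, *Rela* -0.37, *Relb* -0.48, *Nfkbib* -0.08, *Tnip1* -0.23, *Pycard* -0.14, *Il6ra* -0.34. With quantile normalization they were *Rela* -0.15, *Relb* -0.02. With the deposited scores they were *Map3k7* -0.02, *Tab2* -0.06. With normexp they were *Tlr2* 0.03, *Relb* -0.05, *Ripk1* 0.19, *Birc3* 0.02. With the filter on all 8 arrays they were *Cflar* 0.41. With the mean of probes they were *Irak1* 0.07, *Stat3* -0.03. With array weights they were *Il1rap* -0.17, *Tlr2* 0.34, *Ticam1* 0.02, *Irak1* 0.04, *Nfkbia* 0.03, *Ripk1* 0.67, *Il6st* 0.16. Without both replicates 4 they were *Il1rap* -0.24, *Il1rn* 0.02, *Tlr2* 0.37, *Ticam1* 0.08, *Irak1* 0.09, *Irak3* 0.04, *Traf6* 0.01, *Nfkb1* -0.05, *Nfkbia* 0.19, *Tnfaip3* 0.07, *Ripk1* 0.75, *Il6st* 0.28. With 1 array left out, differences ran on both sides of 0 for *Birc3* (-0.30 to 0.17), *Map3k7* (-0.03 to 0.26), *Tab2* (-0.13 to 0.41), *Relb* (-0.15 to 0.32), *Tlr2* (-0.41 to 0.21), *Ticam1* (-0.10 to 0.08), *Nfkbia* (-0.24 to 0.36), *Ripk1* (-0.41 to 0.57), *Socs1* (-0.41 to 0.04), *Fadd* (-0.17 to 0.06), *Il1rap* (-0.15 to 0.46), *Irak1* (-0.56 to 0.10), *Traf3* (-0.17 to 0.45); *Traf3*, 0.00 with all arrays, was -0.56 without scaling, -0.15 with the deposited scores and 0.41 with array weights.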

Other observations

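The 76 tested pathway genes that are not members showed, by role, a layout that can be set beside that of the members. Of 12 further receptors and co-receptors 7 had a log2 fold change below 0, with a median of -0.07. Of 13 further adaptors 9 were above 0 (median 0.24), of 6 further transcription factors 5 (median 0.42) and of 15 further negative regulators 11 (median 0.22). The 16 further kinases had 9 below 0 and a median of -0.19, and the 13 further survival and death genes had 6 below 0 and a median of 0.05. Over all tested genes 43.4% were below 0 and the median was 0.08, and without scaling between arrays that median was -0.47, so the sides of 0 given here hold for this scaling. Past the adjusted threshold in limma were 1 of the receptors (lower), 1 of the kinases and their partners (higher) and 1 of the negative regulators (higher), near the 1.3% lower and 2.94% higher over all tested genes. These lists were drawn up with earlier results of these data known, and no test was made of a list.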
